A study of Caenorhabditis elegans with 2 samples.

Results

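The body wall muscle genes are 40 genes of muscle structure and its control, from the actins and myosins to the attachment proteins and the myogenic factor gene hlh-1, out of 19973 protein-coding genes. They were listed by name and function and not by any measured value, although earlier results of these data were known when the list was made. Their promoters and gene bodies were searched for binding of EGL-5, the Hox transcription factor that acts in the tail region. The data are chromatin immunoprecipitation followed by sequencing (ChIP-seq) on whole Caenorhabditis elegans of pooled sexes at the L3 larval stage. The strain was OP54, in which unc-119(ed3) III is combined with wgIs54, the insertion behind the eGFP-tagged EGL-5. Both samples, biological replicates 1 and 2, share this genotype, stage and treatment and form 1 group, so no conditions are contrasted here. DNA came from all cells of the animal, so the cell type behind a signal at a muscle gene cannot be told. No read counts accompany the peaks, and the depth behind each value is unknown.

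Body wall muscle of the worm is obliquely striated and lies in quadrants under the epidermis along the body. Its sarcomeres hold thin filaments of actin with tropomyosin and troponin, and thick filaments of myosin on a paramyosin core. Thin filaments are anchored at dense bodies and thick filaments at M-lines, and both structures are tied through integrin to a basement membrane that holds perlecan. Some of these genes were named for mutants that are uncoordinated or paralysed (unc), or that arrest as paralysed embryos during elongation (pat). HLH-1, the MyoD homologue of the worm, directs muscle fate together with other factors. Hox proteins such as EGL-5 give cells along the body axis their regional identity.

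A gene was counted as bound when the summit of a peak fell between 1000 bp upstream and 200 bp downstream of any of its annotated transcript starts, which is called its promoter window here. The authors kept 2570 peaks after filtering by the irreproducible discovery rate (IDR), which compares peak ranks between lists. A place among them does not mean a high rank in each replicate. Of the 2570, 53.3% overlapped one of the 2570 highest peaks of both replicates, and some overlapped no peak of one replicate. Each peak has a score on the authors' own scale, and scores of these IDR peaks ran from 30.8 to 509.8 with a median of 41.0. They are the 2570 highest of the 28619 peaks in the pooled list, and the other 26049 are called weaker peaks below. The pooled list is described by the authors as peaks and background, so a weaker peak need not be binding.

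Of the 40 muscle genes, 9 (22.5%, exact binomial 95% interval 10.8 to 38.5) had an IDR summit in a promoter window. Among all protein-coding genes the share was 8.93%. The 9 genes were act-4, hlh-1, tnt-3, unc-112, pat-10, atn-1, unc-60, unc-27 and zyx-1. A further 2 genes, unc-52 and unc-54, had an IDR summit only within the gene body, which brings the count to 11 of 40 (27.5%, interval 14.6 to 43.9) against 10.6% of all genes. The remaining 29 had none in either place. No test was made of these shares, because the list was written with results of these data in view. The intervals cover counting error only.

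The 9 genes carried 12 distinct promoter peaks, with a median score of 37.8 against 42.7 for all 1389 IDR promoter peaks. Of the 12, 5 lay above the median of the IDR list, which is close to the even split that a median gives over all peaks. The highest of them, at act-4, was far above the rest with a score of 81.4. By role, promoter peaks stood at the 1 regulator, at 5 of 15 thin filament genes, at 3 of 14 attachment genes and at 0 of 10 thick filament genes. The share of all protein-coding genes was 8.93%, and classes this small give wide intervals.

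**Figure D1:**
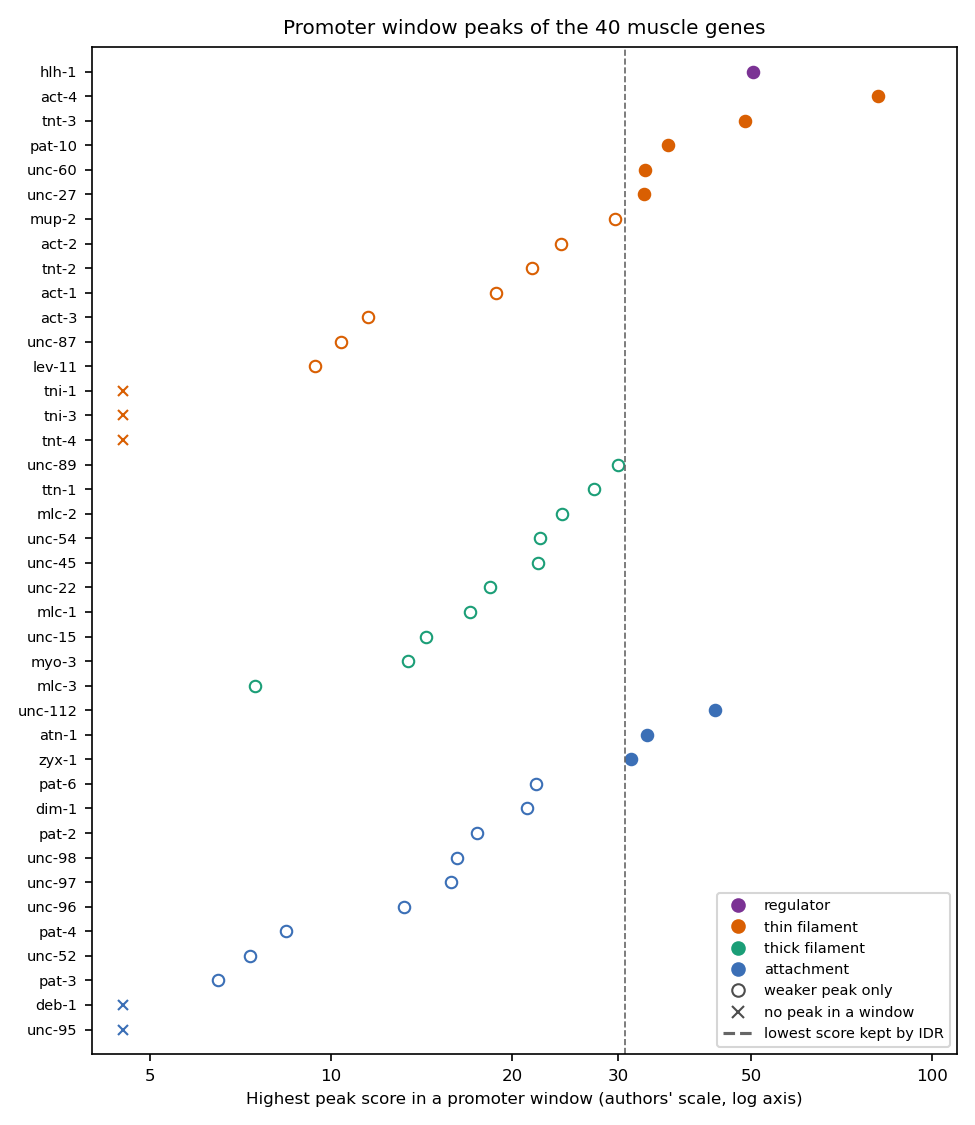
Highest score of a pooled peak in a promoter window (authors' scale, log axis) for each of the 40 muscle genes, grouped by role. Filled points are IDR peaks, open points weaker peaks, crosses genes with no peak in a window, and the dashed line is the lowest IDR score of 30.8. Of the filled points act-4 is highest at 81.4, and all 10 thick filament genes lie left of the line.

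The sequence at the summits is shown for 6 of the promoter peaks that held the letters GAGAGA, since of the motifs searched only these were found at muscle peaks. Each is 101 bases of WBcel235 (RefSeq's copy of the assembly, the same as ce11), centred on the summit and read 5′ to 3′ on the strand of the gene. Capitals mark GAGAGA or its reverse complement TCTCTC.
unc-112, chrV:14696983-14697083, minus strand: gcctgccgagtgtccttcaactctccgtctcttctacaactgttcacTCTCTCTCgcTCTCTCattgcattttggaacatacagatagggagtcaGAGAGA
zyx-1, chrII:13066827-13066927, plus strand: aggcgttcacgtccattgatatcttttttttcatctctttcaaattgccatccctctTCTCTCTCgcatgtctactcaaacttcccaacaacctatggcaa
unc-60, chrV:1474619-1474719, plus strand: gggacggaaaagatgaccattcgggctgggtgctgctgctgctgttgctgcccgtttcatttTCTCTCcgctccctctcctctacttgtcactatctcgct
atn-1, chrV:12479170-12479270, plus strand: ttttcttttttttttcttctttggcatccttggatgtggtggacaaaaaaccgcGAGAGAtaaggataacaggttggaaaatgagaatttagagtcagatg
unc-27, chrX:8789198-8789298, plus strand: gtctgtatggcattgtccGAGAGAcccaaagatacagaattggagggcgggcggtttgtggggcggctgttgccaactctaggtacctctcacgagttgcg
act-4, chrX:4962448-4962548, plus strand: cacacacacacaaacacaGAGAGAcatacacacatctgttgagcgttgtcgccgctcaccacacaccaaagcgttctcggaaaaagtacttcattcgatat

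The 3 promoter peaks with the highest scores held no such repeat within 50 bp of the summit, and nothing in them is in capitals.
act-4, chrX:4962227-4962327, plus strand: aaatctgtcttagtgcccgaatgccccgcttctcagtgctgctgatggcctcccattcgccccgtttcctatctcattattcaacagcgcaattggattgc
hlh-1, chrII:4518419-4518519, plus strand: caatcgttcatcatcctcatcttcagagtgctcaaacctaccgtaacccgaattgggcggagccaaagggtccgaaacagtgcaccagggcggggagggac
tnt-3, chrX:7945505-7945605, minus strand: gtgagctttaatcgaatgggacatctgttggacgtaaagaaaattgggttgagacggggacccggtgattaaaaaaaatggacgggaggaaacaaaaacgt

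Thin filament genes included the strongest muscle signal. act-4 encodes an actin and lies on the X chromosome at 4960621 to 4964413 on the plus strand, with 2 annotated starts 2254 bp apart. It had 4 IDR summits in its promoter windows, and it was the only one of the 19973 genes with 4 or more, while 62 genes had 2 or more. Its highest peak, at 4962095 to 4962458, had a score of 81.4 and ranked 123 of 2570. The summit lay in an intron, -598 bp from the internal start. The second intronic peak scored 31.9, with its summit 221 bp further on, and the peaks overlap by 143 bp, so the 4 summits mark 3 separate regions. The others scored 43.1, at -979 bp from the upstream start, and 39.3, at -8 bp from it.

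At act-4 the highest peak had a score of 31.2 in replicate 1 and 50.6 in replicate 2, ranks 228 and 122 of the 30000 peaks in each list. Scores of different lists are on different scales, with medians of 4.28 in replicate 1 and 7.03 in replicate 2, so ranks are the better comparison. For both intronic peaks the highest-scoring overlapping peak was the same in each replicate. The peak at -979 bp scored 18.2 in replicate 1 and 20 in replicate 2, and the peak at -8 bp scored 19 and 20.1. In each replicate all 4 peaks overlapped one of the 2570 highest peaks.

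The other 3 actin genes, act-1, act-2 and act-3, form a cluster on chromosome V and had no IDR summit in a promoter window. Their highest weaker peaks scored 18.8, 24.1 and 11.5. An IDR peak with a score of 31.9 lay between act-3 and act-2, with its summit at -1912 bp from the act-3 start and beyond the 3′ end of act-2. It scored 21.3 in replicate 1 (rank 769) and 6.64 in replicate 2 (rank 16357). Actin genes are close copies of each other, and how reads that match several places were treated is not stated. The share of promoter window positions whose 31 bases occur once in the genome was 84.8% for act-1, 98.2% for act-2, 93.7% for act-3 and 98.6% for act-4, where the median of all genes is 100%. How far this bears on the actin peaks was not tested.

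Troponin holds the thin filament off until calcium arrives, and 3 of its genes had an IDR peak. tnt-3, a troponin T gene on the X chromosome, had a peak with a score of 48.9 at -456 bp. It scored 21.6 in replicate 1 (rank 735) and 27.6 in replicate 2 (rank 1116). pat-10, which encodes troponin C, had a peak of 36.3 with its summit in an exon, 153 bp inside the outermost start and -119 bp from a further start. Its window is shared with C46H11.6, so the peak cannot be given to one gene, and it ranked 2083 in replicate 1 and 2270 in replicate 2. unc-27, a troponin I gene on the X chromosome, had a peak of 33.1 at -208 bp, which ranked 3949 in replicate 1 and 1436 in replicate 2.

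The remaining troponin genes had no IDR peak in a window. mup-2 and tnt-2, both troponin T genes, had weaker peaks of 29.7 and 21.6, the first just below the lowest IDR score. No peak of any strength lay in the windows of tnt-4, tni-1 and tni-3. For tnt-4 the unique share of window positions was 72.2%, the lowest of the 40 genes, whereas it was 100% for tni-1 and tni-3. For tni-3 the nearest IDR summit to its start was 130726 bp away, the farthest of all the muscle genes.

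unc-60 encodes actin depolymerising factors of the ADF/cofilin family. Its peak scored 33.3 at -417 bp, in a window shared with F53E2.2. It scored 12 in replicate 1 (rank 2875) and 22.5 in replicate 2 (rank 1858), so replicate 1 placed it just below its 2570 highest peaks. lev-11, the tropomyosin gene, had 11 annotated starts, more than any other muscle gene, and yet no promoter summit above 9.39. unc-87, a calponin-related actin-bundling protein gene, reached 10.4.

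Thick filament genes had no IDR summit in a promoter window, 0 of 10, with an exact 95% interval that reaches 30.8%. This interval holds the 8.93% of all protein-coding genes, and 10 genes cannot show a share below it. All 10 had a weaker promoter peak. Over all protein-coding genes 40.2% had a pooled summit, IDR or weaker, in a promoter window. unc-54, the major myosin heavy chain gene, had an IDR peak inside the gene, in an intron 1209 bp past the start, with a score of 34.4. It ranked 1260 in replicate 1 and 4184 in replicate 2. At its start the highest weaker peak scored 22.3. myo-3, which encodes the minor myosin heavy chain at the centre of the filament, had promoter peaks up to 13.4 and an IDR peak of 35.8 upstream, at -1353 bp.

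Among the giant kinases of the sarcomere, unc-89 (obscurin) had 8 weaker peaks in its windows, the highest at 30, and ttn-1 (titin) had 3, the highest at 27.4. An IDR peak of 36.5 lay at -1679 bp from a ttn-1 start. unc-22 (twitchin) reached 18.4. None of these 3 genes held an IDR summit within the gene, although they span 55184, 81724 and 38311 bp. The myosin light chain genes mlc-1 and mlc-2, which lie in divergent orientation on the X chromosome, had weaker peaks of 17.0 and 24.2, and mlc-3 had 7.48. unc-45, a myosin chaperone gene, reached 22.1 and unc-15, the paramyosin gene, 14.4.

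Attachment genes with a promoter peak were unc-112, atn-1 and zyx-1. unc-112 encodes kindlin, an integrin partner. Its peak scored 43.5 at -379 bp, and it ranked 768 in replicate 1 and 2029 in replicate 2. atn-1 encodes alpha-actinin of the dense body, and its peak of 33.5 lay in an intron, -610 bp from an internal start. The replicates differed most here, with a score of 25.6 (rank 435) in replicate 1 and 5.82 (rank 19841) in replicate 2. zyx-1, the zyxin gene, had a peak of 31.6 in an intron, 9967 bp past the outermost start and -132 bp from an internal one, at rank 7024 in replicate 1 and 2158 in replicate 2.

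unc-52 encodes perlecan of the basement membrane and held 2 IDR summits within introns of its 37136 bp, both outside promoter windows. They scored 44.8 and 41.8. The first ranked 895 in replicate 1 and 1898 in replicate 2, and the second 2567 and 1177. Its promoter windows held only a weaker peak of 7.33. For comparison, gene bodies of the 40 genes held 8 IDR summits in 385 kb, or 2.08 per 100 kb, and gene bodies of all protein-coding genes held 1.29 per 100 kb. The 8 include summits that also lie in promoter windows, at act-4, pat-10, atn-1 and zyx-1. Only those of unc-52 and unc-54 lie outside promoter windows.

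The core of the integrin complex had no IDR promoter peak. pat-2 (alpha integrin) had weaker peaks up to 17.5, pat-3 (beta integrin) up to 6.49, pat-4 (integrin-linked kinase) up to 8.42 and pat-6 (parvin) up to 21.9. pat-2 also had an IDR peak of 38.7 at -3050 bp. The M-line genes unc-96 and unc-98 reached 13.2 and 16.2, and dim-1, an immunoglobulin-domain protein gene, 21.2. deb-1, the vinculin gene, and unc-95 had no peak of any strength in a window. The IDR summit nearest to a deb-1 start, with a score of 40.2, lay past the 3′ end of deb-1 in the promoter window of rps-4, a ribosomal protein gene.

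unc-97, which encodes the LIM protein PINCH, had a peak that fell just outside the window and scored higher than every muscle promoter peak but the highest at act-4. The summit lay at -1159 bp with a score of 58.8, rank 462 of the IDR peaks. It scored 41.9 in replicate 1 (rank 73) and 23.1 in replicate 2 (rank 1749). Within the window unc-97 had a weaker peak of 15.8. Just inside the limit of the window, by contrast, was the act-4 peak at -979 bp with its score of 43.1. In all, 9 muscle genes without a promoter peak had an IDR summit within 2500 bp of a start, with unc-97, unc-54 and myo-3 the nearest and tni-1 the farthest at -2114 bp. Of these, act-2 and act-3 share the same summit, and that of deb-1 lies in the window of rps-4. For 12 of the 40 genes the nearest IDR summit was over 10000 bp from any start. Neither distance count was made over all genes, so neither can be called high or low.

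hlh-1, the only transcription factor gene of the list, had 1 IDR peak, at 4518287 to 4518650 on chromosome II. The summit lay at -105 bp from its outermost start, outside the gene, and the score of 50.4 ranked 723 of 2570. It scored 26.2 in replicate 1 (rank 403) and 19.9 in replicate 2 (rank 2474), so it was near the lower limit of the 2570 highest in replicate 2. Its promoter windows held no other peak of any strength.

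**Figure D2:**
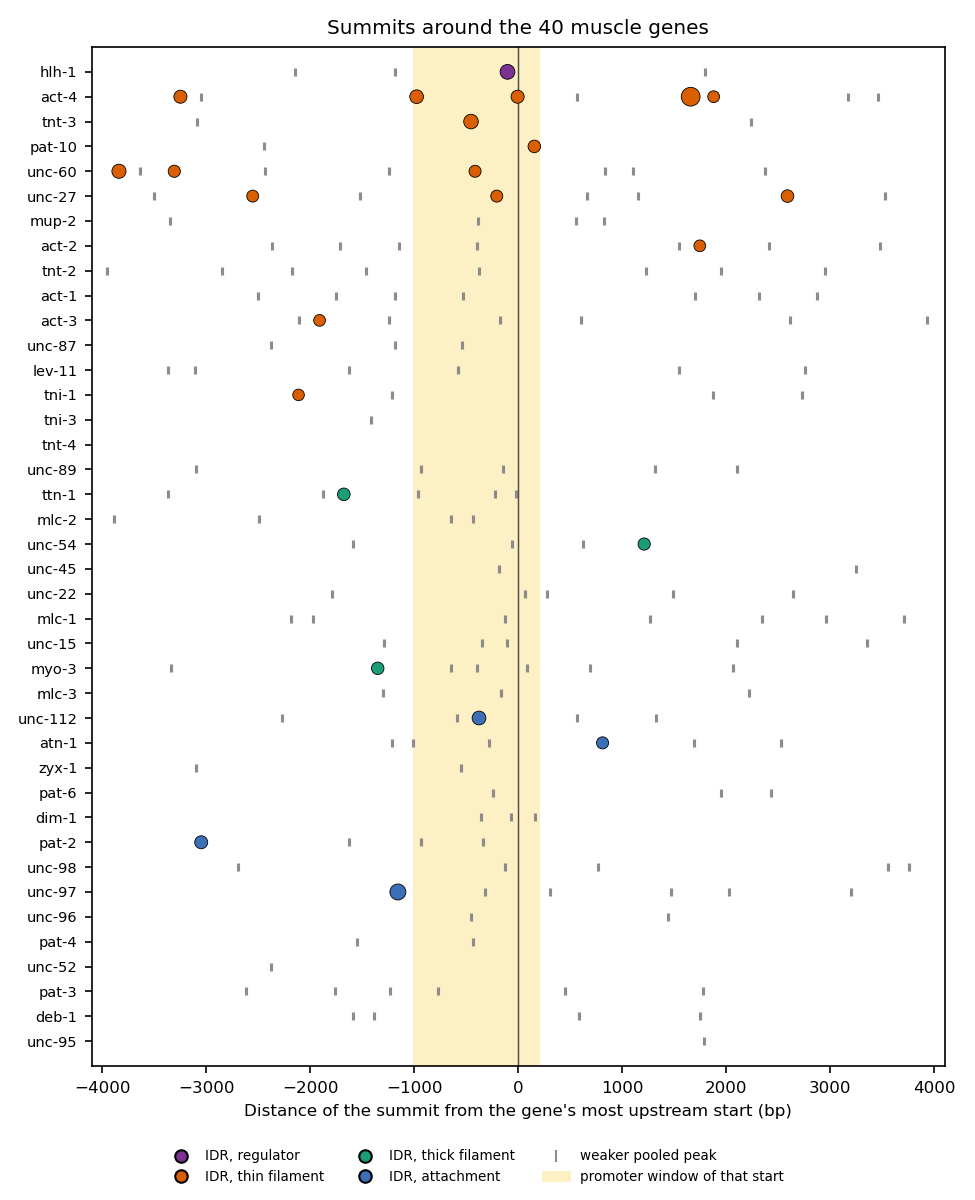
Distance of pooled summits from the most upstream start of each muscle gene (bp, negative is upstream), with coloured circles for IDR peaks (area by score) and grey ticks for weaker peaks. The shaded band is the window of that start alone. The peaks of hlh-1, tnt-3, unc-60, unc-27 and unc-112 lie in the band, those of unc-97, myo-3, ttn-1 and tni-1 upstream of it, and the highest act-4 peak 1656 bp downstream of the first start.

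Replicate ranks were then set side by side. Of the 12 promoter peaks, 9 overlapped one of the 2570 highest peaks of replicate 1, 11 did so in replicate 2 and 8 in both. Over all IDR peaks these shares were 70.3%, 80.7% and 53.3%. In each replicate the 2 intronic act-4 peaks were counted through the same replicate peak. None of the 12 lacked support in both replicates at this limit. The shares above leave few such peaks among all IDR peaks as well, so this is not particular to the muscle genes. Of all 1389 IDR promoter peaks, 55.3% were among the highest of both. Counted by gene, 5 of 40 muscle genes (12.5%, interval 4.19 to 26.8) had a promoter peak among the highest of both replicates, against 5.14% of all genes. These were act-4, hlh-1, tnt-3, unc-112 and pat-10. The lower-scoring peaks of unc-27, unc-60 and zyx-1 rested mainly on replicate 2, and that of atn-1 on replicate 1.

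**Figure D3:**
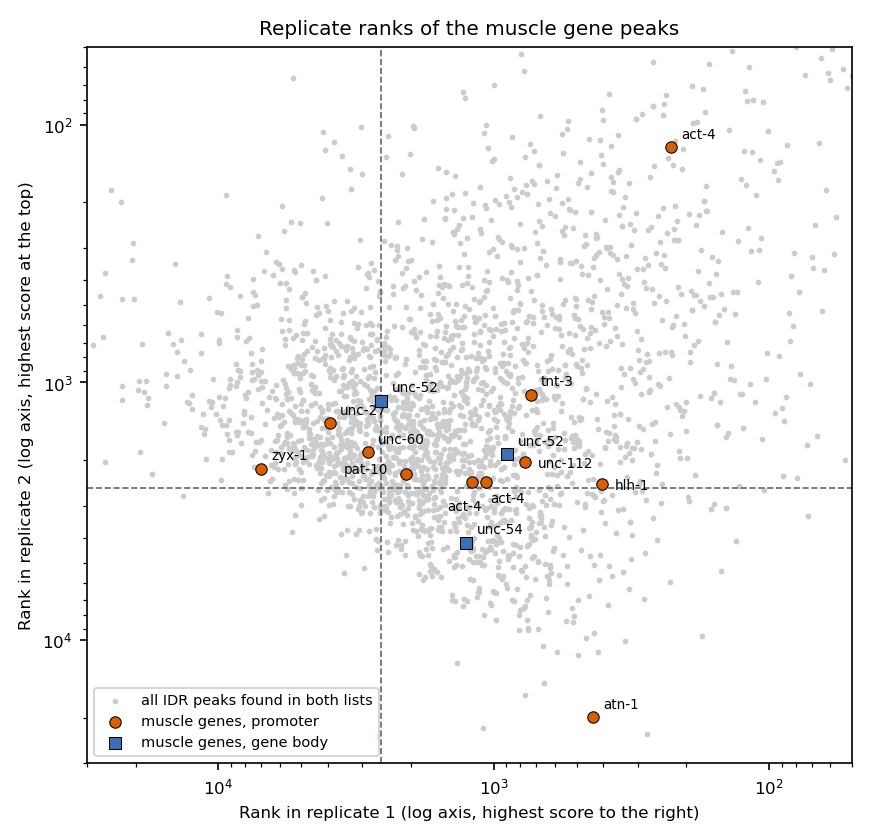
Rank in replicate 1 (x) and replicate 2 (y), log axes with the highest scores at the top right, for IDR peaks found in both lists (grey) and for those of the muscle genes (orange promoter, blue gene body). Peaks ranked above 50 in either list fall outside the axes, and dashed lines mark rank 2570. The 2 intronic summits of act-4 share 1 point, at ranks 228 and 122, and of the muscle peaks atn-1 lies farthest below the horizontal line.

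Counting weaker peaks too, 35 of the 40 muscle genes (87.5%, interval 73.2 to 95.8) had a summit of the pooled list in a promoter window, whereas 40.2% of all protein-coding genes did. Among the 31 genes without an IDR promoter peak, 26 had a weaker one (83.9%, interval 66.3 to 94.5). The same share was not counted over all genes without an IDR promoter peak, so 83.9% cannot be called high or low. The highest pooled score per gene, with genes without a summit set to 0, had a median of 18.6 over the 40 genes and of 0 over all genes. How much of this is the background that the pooled list includes was not tested.

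Genes with several starts have more promoter windows, and the muscle genes had a mean of 2.40 starts against 1.49 over all genes. Of genes with 1 start, 3 of 23 muscle genes (13.0%) and 7.13% of all genes had an IDR promoter peak. With 2 or 3 starts the values were 3 of 8 (37.5%) and 12.5%, and with 4 or more they were 3 of 9 (33.3%) and 18.9%. The muscle share was above that of all genes in each class, but each interval holds the value of all genes. With the pooled list the classes gave 20 of 23 (87%, interval 66.4 to 97.2) against 33.2%, 7 of 8 (87.5%) against 54.9%, and 8 of 9 (88.9%) against 76.4%. In the pooled list the interval of the 1-start class lay above the value of all genes, while those of the other classes, 47.3 to 99.7 and 51.8 to 99.7, held it.

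**Figure D4:**
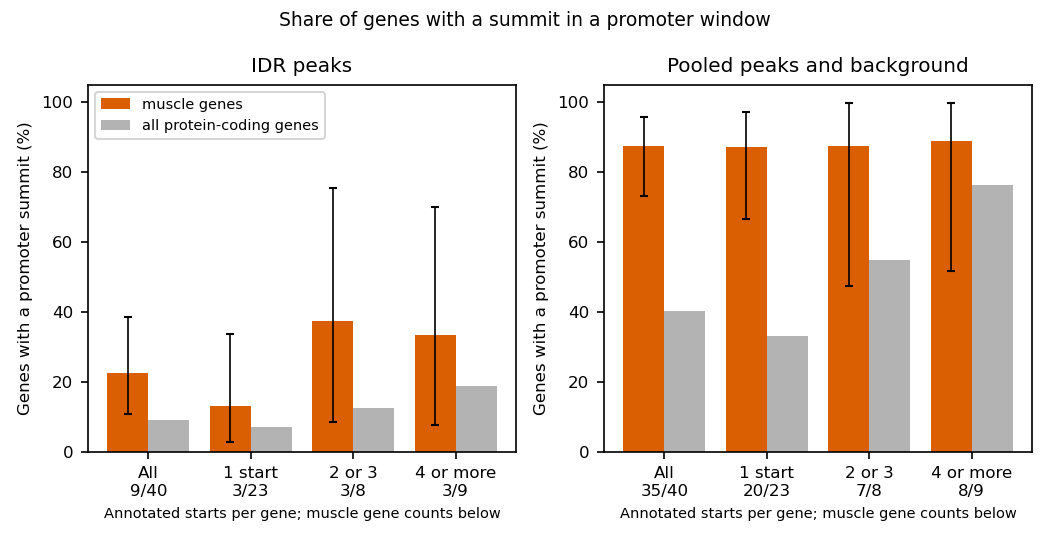
Percent of genes with a summit in a promoter window, by the number of annotated starts, for IDR peaks (left) and the pooled list (right). Orange bars are muscle genes with exact binomial 95% intervals and their counts below, and grey bars are all protein-coding genes. In the pooled list the muscle share stays near 87.5% in every class, while that of all genes climbs from 33.2% to 76.4%.

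The X chromosome held 12 of the muscle genes, and 3 of them had an IDR promoter peak (25%, interval 5.49 to 57.2) against 10% of all X genes. On the autosomes it was 6 of 28 (21.4%, interval 8.30 to 41.0) against 8.76%. The muscle genes on X and on the autosomes thus had like shares, with wide intervals.

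The letters GAGAGA lay within 50 bp of the summit, on either strand, in 8 of the 15 IDR peaks in promoters or gene bodies of muscle genes. Among all 2570 IDR peaks 26.8% held it, among IDR promoter peaks 24.8%, and among the 8592 weaker promoter peaks 12.3%. No interval was computed for the count of 8 of 15, and 2 of the 15 peaks overlap each other at act-4. The 8 were those of unc-112, pat-10, unc-54, atn-1, unc-60, unc-27 and zyx-1 and the lower-scoring intronic summit of act-4. In the unc-112 sequence printed above there are 4 matches, the nearest centred -0.5 bp from the summit. In the zyx-1 peak there are 2, the nearest 9.5 bp away, and in atn-1 a single match lies 6.5 bp away. Within 25 bp of the summit, 4 of the 15 peaks (26.7%) and 14.1% of all IDR peaks held the letters. Within 100 bp, 8 of the 15 (53.3%) and 42.1% of all IDR peaks did.

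None of the 15 muscle peaks held the posterior Hox hexamer TTTATG, the E-box CAGCTG or TGATNNAT, a composite of Pbx and Hox sites, within 50 bp of the summit on either strand. These letters are infrequent at any peak, in 11.3%, 4.75% and 7% of all IDR peaks and in 9.08%, 2.56% and 7.55% of weaker peaks. The absence says only that these letters are not in these windows.

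Other genes of muscle and its innervation were counted from 7 related lists, also written with earlier results known. Of 81 genes found, 13 (16%, interval 8.83 to 25.9) had an IDR promoter peak, and the interval holds the 8.93% of all protein-coding genes. Regulators of actin and thick filaments had the most, 7 of 14 (50%, interval 23 to 77). They were cap-2 (67.1) and cap-1 (41.3), the subunits of actin capping protein, unc-78 (37.7), an actin-interacting protein gene, cas-1 (35.6), a cyclase-associated protein gene, gsnl-1 (32.8), related to gelsolin, and the myosin quality control genes chn-1 (32.8) and ufd-2 (32.1). At the neuromuscular junction 4 of 12 genes had one (33.3%, interval 9.92 to 65.1), oig-4 (39.7), unc-50 (37.7), the GABA receptor gene unc-49 (36.6) and lev-9 (30.8). Because the lists were written with earlier results known, no interval here is a test against the share of all genes. Of these 13 genes, cap-1, cap-2, chn-1, unc-50, lev-9 and oig-4 share the window of their peak with other genes, so those 6 peaks cannot be given to one gene.

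Of the genes for excitation and calcium only sca-1, the calcium pump of the sarcoplasmic reticulum, had a promoter peak (31), 1 of 13. Of the attachment and basement membrane genes only vab-10, a spectraplakin gene, did (39.9), 1 of 15. Pharyngeal muscle (0 of 7, interval up to 41.0%), the dystrophin complex (0 of 9, up to 33.6%) and regulators of muscle and of the M lineage (0 of 11, up to 28.5%) had none. All 5 of these intervals hold the 8.93% of all genes, and lists this short cannot show a share below it. unc-120 and hnd-1, the other myogenic factor genes, were among those without a promoter peak.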

How the data were processed

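EGL-5 binding was measured by ChIP-seq in 2 replicates of 1 group. The authors deposited peak lists with a score per peak on their own scale and a −log10 q-value, which entered no comparison. Per the deposited notes the replicate lists (30000 peaks each) and the pooled list hold peaks and background, and the IDR list is the optimal thresholded set. The sources used here name no aligner or peak caller and give no threshold for IDR. Lists on ce11 were used with Ensembl release 115 on WBcel235, the same assembly, on 6 chromosomes, with sequence from RefSeq's copy of it. Scores of replicate 1 on ce11 differed at equal rank by a median of 39.3% from replicate 1 on ce10 and by 0.218% from replicate 2, so the replicate names differ between builds. Numbers here follow ce11, and which biological sample each belongs to could not be settled.

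All transcript starts of protein-coding genes were used. Support in a replicate was an overlap of at least 1 bp with its 2570 highest peaks, taking the highest-scoring overlapping peak. Every listed gene is accounted for, and of the related lists the genes with a promoter peak are named. 1 gene of these 82, unc-74, was not matched by name. The members, lists and motifs were chosen with earlier results of these data known, so all comparisons are descriptions and no test was run. Assignment of summits was tested on simulated data. The counts were repeated with other windows, other starts, nearest starts, whole peaks, the 1285 highest IDR peaks and with each replicate left out. Python 3.11.15, numpy 2.4.6, pandas 2.3.3 and scipy 1.17.1 were used.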

Additional observations from a re-analysis of the deposited data

How the results depend on the processing

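The count of 9 muscle genes with a promoter peak was repeated under other windows, starts and peak definitions. Those that kept a window and the whole IDR list gave 7 to 13. The lowest was with the outermost start only (17.5%, against 8.24% of all genes). The highest was with 2000 bp upstream (32.5%, against 11.8%). The count was 17 (42.5%, against 10.7% of all genes) when each summit was given to its nearest start. Adding gene bodies also gave 17 genes (against 11.0% of all genes). With nearest starts 9 genes were among the highest peaks of each replicate, which was not counted over all genes. Among the 1285 highest IDR peaks the count was 4 (10%, against 5.15%), and 5 with gene bodies (against 6.01% of all genes). Without replicate 1 the count was 12 (30%, against 9.07% of all genes), of which 8 were among the 9. Without replicate 2 it was 8 (20%, against 7.83%), of which 6 were among the 9. With gene bodies these were 14 (against 10.7% of all genes) and 11 (against 9.83%). GAGAGA lay in 7 of 18 and 9 of 15 peaks, or 38.9% and 60% against 24.9% and 24.8% of all peaks kept. With any overlapping peak of each replicate accepted, 9 genes had support in both in place of 5. Each replicate list holds 30000 peaks including background, so nearly any IDR peak meets this rule and it says little about support. GAGAGA within 25 bp of the summit gave 4 peaks in place of 8, or 26.7% against 14.1% of all IDR peaks. Counting starts of protein-coding transcripts only, an alternative chosen after seeing the data, left the 5 muscle gene values and the median score recomputed under it as they were, while the share of all genes was 8.92% for IDR and 40.1% for pooled summits. The cause of these shifts was not tested beyond their construction. The median score could not be recomputed with a replicate left out, because each list has its own scale. Without read counts, the depth of the samples sets no interval on a single peak.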

Other observations

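Several muscle genes lay in stretches with more than 1 IDR peak. Such stretches were not counted over all genes, so they cannot be called frequent or rare here. Beside its 4 promoter summits, act-4 had one of 39.6 at -3250 bp from its first start, in the promoter window of M03F4.4. unc-60 had IDR summits at -3309 and -3841 bp, with scores of 34.1 and 45.9, in no promoter window and in no gene body. unc-27 had one of 32.7 at -2555 bp, within ZK721.3, and one of 36.6 at 2587 bp, in the promoter window of chup-1.

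The GAGAGA letters were divided unevenly by score among the muscle peaks, in a comparison chosen after its values were seen. Of the 8 muscle peaks among the 1285 lowest IDR scores 7 held them, and of the 7 among the 1285 highest 1 did. Over all IDR peaks the shares were 25% in the lower group and 28.7% in the higher. The cause was not tested.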
